A study of Mus musculus with 2 samples.

Results

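The genes of oxidative phosphorylation were taken from the germ cell count table by symbol, as protein-coding genes whose symbol starts with Ndufa, Ndufb, Ndufc, Ndufs, Ndufv, Uqcr, Atp5, Cox4, Cox5, Cox6, Cox7, Cox8 or mt-, together with Sdha, Sdhb, Sdhc, Sdhd and Cyc1. Of the 42422 genes in the table, 40391 were matched to the mouse annotation and 111 met this rule. These were 7 nuclear core subunits, 31 accessory subunits and 8 assembly factors of complex I, 4 genes of complex II, 9 of complex III, 21 of complex IV, 18 of ATP synthase and the 13 protein-coding genes of the mitochondrial genome. Counts were high enough to test 107 of the 111, among 15252 genes tested in all. The others were Cox6a2, Ndufa4l2, Cox4i2 and Cox8b, tissue-restricted isoforms that reached at most 1.95 CPM (the count scaled to a common library total) in any library.

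Oxidative phosphorylation makes ATP in the inner mitochondrial membrane. Complexes I and II pass electrons from NADH and succinate to ubiquinone, complex III passes them to cytochrome c, complex IV passes them to oxygen, and ATP synthase uses the proton gradient built by complexes I, III and IV. Complexes I, III, IV and ATP synthase are built from nuclear and mitochondrial gene products together, while complex II is wholly nuclear. In the foetal mouse gonad, XX germ cells enter meiosis and XY germ cells enter mitotic arrest and start male differentiation. The paper on these data proposes that the XY path needs signalling through the kinase MEK in the testis. It proposes that FGF signalling is not required for that path from E12.5.

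Germ cells came from wild type gonads of E12.5 foetuses of the cross ASMU Swiss by Oct4(Pou5fl)-eGFP on a 129svJT2 background, where the Oct4 promoter drives GFP in germ cells and served for sorting, so a library holds GFP+ sorted cells. Gonads with their mesonephros were cultured, and several gonads were pooled for a library. The 10 groups of 4 libraries were XX and XY cells before culture (0 h), XX and XY cells with the vehicle DMSO for 24 h and 72 h, and XY cells with BGJ398, which blocks FGF receptors (FGFRi), or PD0325901, which blocks MEK (MEKi), each at 500 nM for 24 h and 72 h. Libraries were sequenced in 2 pools of 20, and pool 1 held every 0 h library, both 24 h DMSO groups and the 24 h MEKi group, while pool 2 held the 24 h FGFRi group and all 72 h groups. Comparisons of 72 h with 24 h and of FGFRi with DMSO at 24 h are therefore also comparisons of the pools, and pool cannot be told apart from time or treatment there, whereas XY with XX at each time and the inhibitors at 72 h were compared within a pool.

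The 40 libraries held 1178953 to 5199153 counts after removal of duplicate molecules. Germ cell markers Ddx4 and Dazl were counted in every library. The 23 markers of somatic and blood cells summed to 91.4 to 609 CPM, and to 44.9 to 541.5 CPM without Pecam1. Of these markers 15 were at 0 in at least 1 library. At 72 h the sum of all 23 was close in all groups, at 97.1 to 141 CPM in XX, 122 to 168 in XY DMSO, 91.4 to 131 in FGFRi and 104 to 170 in MEKi libraries. A gene was called higher or lower when limma's test against a 1.5-fold change (treat) passed a false discovery rate of 0.05 over all genes tested, and fold changes are on the log2 scale with their standard error. Levels are TMM-scaled CPM of molecules counted at transcript 3′ ends. In pooled cells, fewer cells with a transcript and less of it per cell cannot be told apart, and p-values measure the spread between pooled-gonad libraries.

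The 6 members with the largest changes between XY and XX cells at 72 h, 3 in each direction, are shown by the 250 bases before their RefSeq start (build GRCm38.p6, strand of the gene, 5′ to 3′), to set their start regions beside their opposite directions. Capitals mark matches, on either strand, to 6 motifs: GCATGCGC (NRF1), CCGGAAG (ETS, the family of GABP), AAGATGGC (YY1), TCTCGCGA (the CGCG element), GGCGGGA (E2F) and TGACGTCA (CRE).
Ndufa1, chrX:37191239-37191488, minus strand: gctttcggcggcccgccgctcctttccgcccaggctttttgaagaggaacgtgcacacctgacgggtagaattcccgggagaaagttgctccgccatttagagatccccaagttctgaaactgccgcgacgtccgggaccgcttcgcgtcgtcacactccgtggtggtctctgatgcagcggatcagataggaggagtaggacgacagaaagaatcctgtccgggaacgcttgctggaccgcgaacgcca
Atp5pb, chr3:105959264-105959513, minus strand: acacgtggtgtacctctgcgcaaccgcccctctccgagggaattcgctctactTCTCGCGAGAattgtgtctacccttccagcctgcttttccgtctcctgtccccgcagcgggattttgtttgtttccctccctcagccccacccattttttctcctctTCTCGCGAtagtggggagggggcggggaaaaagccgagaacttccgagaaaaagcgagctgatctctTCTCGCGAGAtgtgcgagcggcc
Ndufv2, chr17:66101560-66101809, minus strand: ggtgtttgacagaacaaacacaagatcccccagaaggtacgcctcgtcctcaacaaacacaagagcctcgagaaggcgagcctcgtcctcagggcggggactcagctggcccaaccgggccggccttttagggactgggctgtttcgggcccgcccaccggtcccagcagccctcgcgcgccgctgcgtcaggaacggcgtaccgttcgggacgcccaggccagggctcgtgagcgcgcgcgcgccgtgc
Cox7b2, chr5:71548206-71548455, minus strand: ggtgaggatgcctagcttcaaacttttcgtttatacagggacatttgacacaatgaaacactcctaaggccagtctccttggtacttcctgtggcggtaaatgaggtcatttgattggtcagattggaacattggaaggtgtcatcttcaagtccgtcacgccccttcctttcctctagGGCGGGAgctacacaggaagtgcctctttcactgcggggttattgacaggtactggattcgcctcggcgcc
Cox8a, chr19:7217617-7217866, minus strand: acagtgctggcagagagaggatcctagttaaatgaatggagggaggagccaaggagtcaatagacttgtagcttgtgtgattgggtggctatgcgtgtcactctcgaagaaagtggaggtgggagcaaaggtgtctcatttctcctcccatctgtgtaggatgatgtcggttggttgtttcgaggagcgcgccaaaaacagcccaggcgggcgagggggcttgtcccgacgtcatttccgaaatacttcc
Ndufs8, chr19:3912775-3913024, minus strand: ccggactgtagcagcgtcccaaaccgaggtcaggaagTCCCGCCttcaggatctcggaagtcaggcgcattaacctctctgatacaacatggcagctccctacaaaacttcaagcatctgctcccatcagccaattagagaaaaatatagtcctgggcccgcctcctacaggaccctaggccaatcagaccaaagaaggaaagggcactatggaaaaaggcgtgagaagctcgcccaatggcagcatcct
The Atp5pb promoter carried the CGCG element at 3 separate places, 23, 90 and 197 bases before the start, and 2 of these are palindromes counted on both strands. A single E2F match lay 71 bases before the start of Cox7b2 and 213 bases before that of Ndufs8, while the windows of Ndufa1, Ndufv2 and Cox8a held none of the 6 motifs. RefSeq promoters were matched for 76 members. Among them 11.8% held the NRF1 motif against 2.56% of all 27025 genes with a promoter, 18.4% against 7.83% held the ETS motif, 19.7% against 11% held E2F and 5.26% against 1.77% held CRE. The CGCG element, which was searched after the sequences had been seen, stood in 3.95% against 0.977%, and YY1 in 1.32% against 1.83%. Of the members lower in XY than XX cells at 72 h, 2 of 29 held NRF1 and 8 of 29 ETS, compared to 7 and 6 of the 46 other members. A match is a description of the letters and says nothing of binding.

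After 72 h of culture, more nuclear genes of oxidative phosphorylation were called lower in XY cells, relative to XX cells, than were called higher, and no mitochondrially encoded gene was called. Of the 107 members tested, 8 were called higher and 35 lower in XY cells, where 41% of all genes tested were called, 22.8% higher and 18.1% lower. The 35 lower members are 32.7% of those tested and the 8 higher members 7.48%. The median log2 fold change was -0.54 for the 94 nuclear members, 0.14 for the 13 mitochondrial genes and 0.10 for all genes tested. It was -0.28 for the 76 nuclear members whose pseudogene copies held no more than 10% of the summed counts. For cytosolic ribosomal protein genes the median was 0.02, and for mitochondrial ribosomal protein genes -0.11. No library of one sex overlapped those of the other for any of the 43 members called. How often this held among all called genes was not counted. Of these calls, 35 held under all 12 other settings of the analysis and without each library in turn, and the 8 that did not were Atp5if1, Atp5mc1, Ndufaf6, Atp5mk, Ndufa9, Ndufb8, Uqcr11 and Cox6b2.

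**Figure D1:**
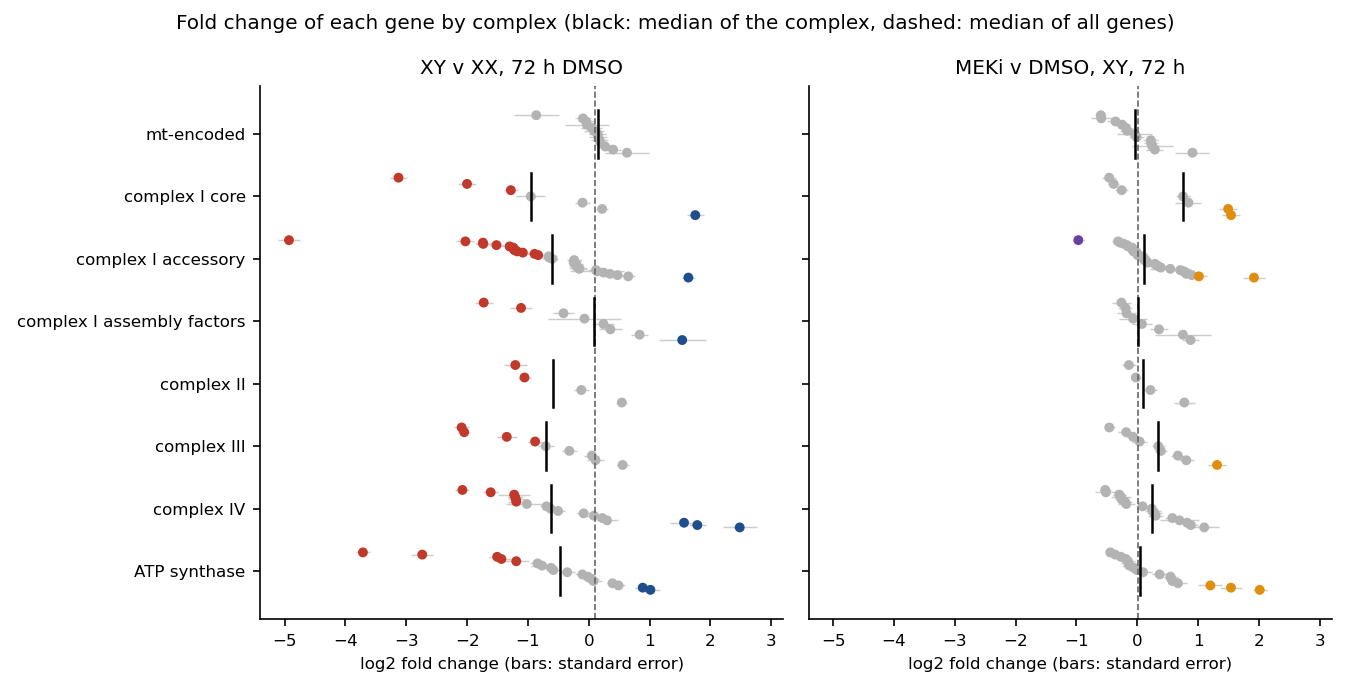
Log2 fold change with its standard error for each tested member (points), grouped by complex, for XY against XX germ cells at 72 h (left) and MEKi against DMSO in XY cells at 72 h (right). Coloured points were called and grey points were not, black bars are medians of a complex and the dashed line is the median of all genes. On the left, 35 coloured points lie below 0 and 8 above it, and on the right 1 lies below and 8 above.

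Complex I takes electrons from NADH through its peripheral arm and pumps protons through its membrane arm. The 7 nuclear core subunits, which carry the flavin and iron-sulphur clusters, had a median of -0.95, and among them Ndufv2 and Ndufs1 were lower in XY cells at 72 h and Ndufs8 was higher. Ndufv2 was counted at 515, 546, 637 and 650 CPM in XX and at 61.9, 61.9, 72.5 and 77.6 CPM in XY libraries. Every XX library lay far above every XY library, an 8.74-fold difference (log2 fold change -3.13 ± 0.141, adjusted p = 5.22e-22). Ndufs8, another iron-sulphur subunit, went the other way, with 81.6, 98.6, 118 and 147 CPM in XX and 359, 377, 391 and 401 CPM in XY libraries (1.75 ± 0.139, adjusted p = 2.33e-10). The XX and XY values of Ndufs8 did not overlap. Ndufs1 differed by -1.28 ± 0.118. Ndufv1 (0.22) and Ndufs7 (-0.10) were not called and their libraries overlapped between the sexes.

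Among the 31 accessory subunits of complex I, 1 was higher and 13 were lower in XY cells, with a median of -0.60. That is 3.23% higher and 41.9% lower, where 22.8% of all genes were higher and 18.1% lower. Ndufa1, an X-linked subunit of the membrane arm, showed the largest difference of all members. It was counted at 711, 877, 906 and 917 CPM in XX libraries (853 ± 96.2, SD, n = 4) and at 22.6, 25.1, 32.2 and 33.3 CPM in XY libraries (28.3 ± 5.28, SD, n = 4). These groups were 30.4-fold apart (log2 fold change -4.93 ± 0.181, adjusted p = 4.97e-27). Ndufb11, also on the X chromosome, differed by -1.08 ± 0.123. Ndufa12 (-2.03), Ndufc1 (-1.74), Ndufa5 (-1.74 ± 0.117) and Ndufb5 (-1.52) were the next largest. The accessory subunit that was higher was Ndufv3, which sits with the NADH-oxidising module, at 92.3 to 122 CPM in XX and 302 to 355 CPM in XY libraries (1.64 ± 0.111, adjusted p = 6.57e-12). Of the 8 assembly factors that share the symbol stem, Ndufaf8 (-1.73) and Ndufaf7 (-1.11) were lower and Ndufaf6 (1.54 ± 0.388) was higher.

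**Figure D2:**
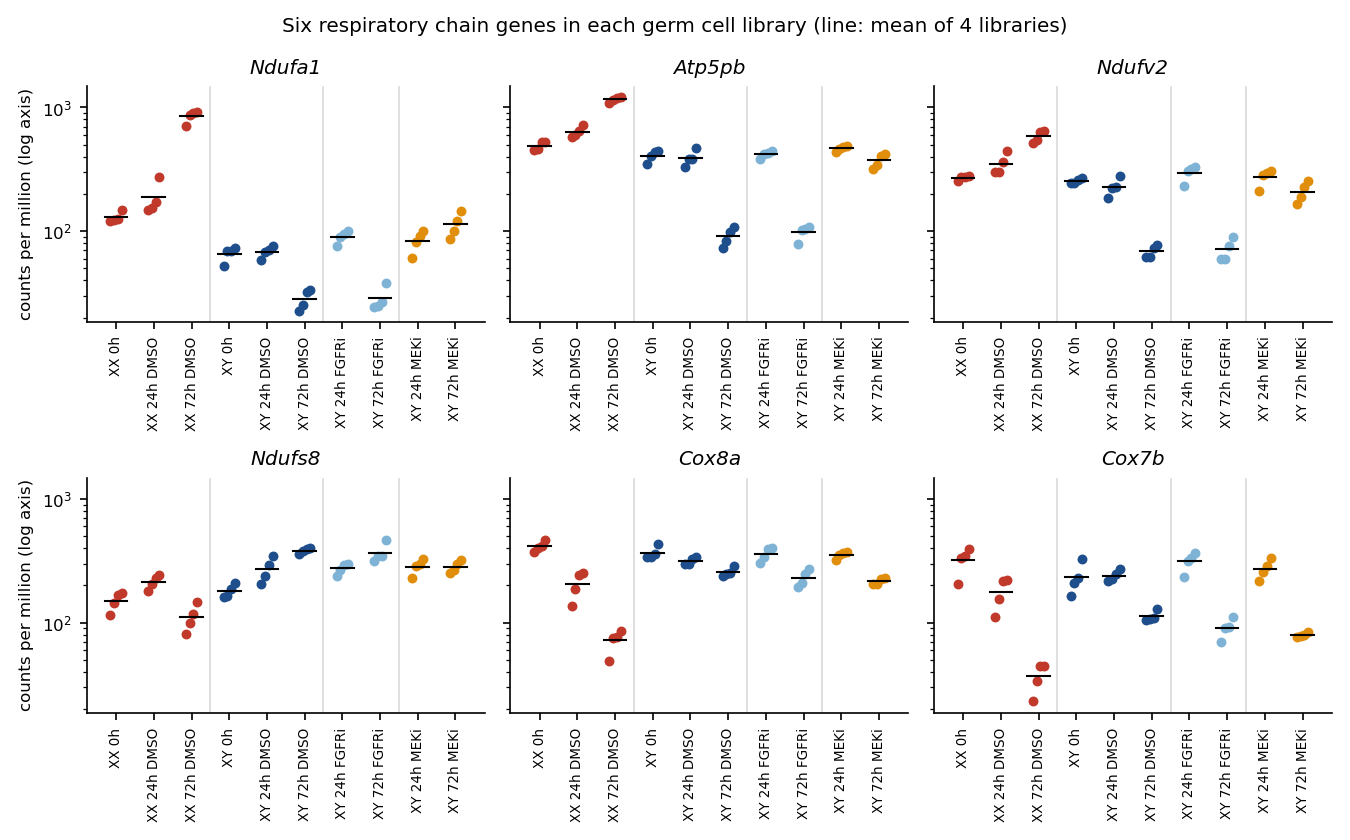
CPM on a log axis in each of the 40 libraries (points; line, mean of 4) for Ndufa1, Atp5pb, Ndufv2, Ndufs8, Cox8a and Cox7b, by group. At 72 h the XX and XY DMSO libraries are apart for all 6 genes, and MEKi libraries of Ndufa1, Atp5pb and Ndufv2 lie above those of DMSO and FGFRi.

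Complex II oxidises succinate and is also an enzyme of the citric acid cycle. Its iron-sulphur subunit Sdhb stood at 227, 272, 277 and 291 CPM in XX and at 127, 129, 132 and 132 CPM in XY libraries at 72 h (-1.06 ± 0.106, adjusted p = 0.000103). The membrane anchor Sdhd was lower as well (-1.21 ± 0.184). The flavoprotein Sdha (0.54) and the other anchor Sdhc (-0.12) were not called. In complex III, which holds cytochromes b and c1 and a Rieske iron-sulphur protein, 4 of 9 genes were lower and none higher, with a median of -0.71. The 44.4% lower compares to 18.1% of all genes. Uqcrc2, a core protein, was counted at 281, 294, 304 and 318 CPM in XX and 65.2, 73.4, 73.7 and 75.7 CPM in XY libraries (-2.05 ± 0.102, adjusted p = 3.33e-18). Its partner core protein Uqcrc1 (0.56) and the Rieske protein Uqcrfs1 (0.05) were not called. Cyc1, cytochrome c1, stood at 147, 170, 171 and 216 CPM in XX and 54.6, 58.6, 68.3 and 89.0 CPM in XY libraries (-1.35 ± 0.161). The small subunit Uqcr10 differed by -2.09 ± 0.121.

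ATP synthase has a catalytic head, a rotor and a peripheral stalk that holds the head still. Of its 18 genes 2 were higher and 5 lower in XY cells, with a median of -0.47. The 38.9% called is close to the 41% of all genes, with 11.1% higher and 27.8% lower against 22.8% and 18.1%. Atp5pb, subunit b of the peripheral stalk, was counted at 1090, 1159, 1184 and 1222 CPM in XX and 73.6, 82.5, 97.6 and 109 CPM in XY libraries. That is a 13.1-fold difference with no overlap (-3.71 ± 0.114, adjusted p = 1.06e-29), and 19.7-fold with counts corrected for merged molecular tags, a correction that leaves abundant genes with the opposite dependence on depth. Atp5pd, another stalk subunit, stood at 122, 172, 206 and 211 CPM in XX and 24.6, 25.1, 28.6 and 29.3 CPM in XY libraries (-2.74 ± 0.183). The stalk subunit Atp5pf was lower as well (-1.50). Atp5po, the subunit that joins stalk and head, did not pass the 1.5-fold test (-0.62), although its XX libraries, at 218 to 278 CPM, lay above its XY libraries, at 152 to 166 CPM. The catalytic Atp5f1b (0.39) and Atp5f1a (-0.77) were not called either, while the rotor subunit Atp5f1e was lower (-1.44 ± 0.15). The 2 higher genes, the inhibitor Atp5if1 (0.89 ± 0.123) and the c-ring gene Atp5mc1 (1.01 ± 0.163), are among the calls that some settings lost.

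Complex IV reduces oxygen and has tissue isoforms for several subunits. Of its 17 tested genes 3 were higher and 6 lower in XY cells at 72 h, with a median of -0.63. That is 17.6% higher and 35.3% lower, where 22.8% of all genes were higher and 18.1% lower. The 3 higher were Cox7b2, Cox8a and Cox7b. Cox8a was counted at 48.8, 75.0, 77.1 and 86.2 CPM in XX and 238, 247, 251 and 285 CPM in XY libraries (1.78 ± 0.143, adjusted p = 2.16e-10). The X-linked Cox7b stood at 23.4, 33.6, 44.9 and 45 CPM in XX and 106, 107, 110 and 128 CPM in XY libraries (1.57 ± 0.237). Hence the 3 X-linked members did not share a direction, as Ndufa1 and Ndufb11 were lower and Cox7b higher in XY cells. Cox5a, a matrix-side subunit, was lower (-2.08 ± 0.116), as were Cox7a2 (-1.61) and Ndufa4 (-1.19), a complex IV subunit despite its name. Cox4i1 (-0.08) and Cox6b1 (0.09) were not called.

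The isoform pairs of complex IV were followed as the share of one isoform in the counts of the pair, which compares 3′-end counts that do not scale with transcript length. Cox7b2, a testis isoform of Cox7b, was counted at 4.68, 8.03, 10.4 and 10.8 CPM in XX and 40.5, 48.5, 51.5 and 60.6 CPM in XY libraries at 72 h (2.48 ± 0.282, adjusted p = 6.48e-08). Its share of the pair went from 1.36% before culture to 18.7% at 72 h in XX cells, and from 1.83% to 30.7% in XY cells, and was 38.6% with FGFRi and 35.7% with MEKi. In XX cells the share was 5.44% at 24 h, and Cox7b fell between 24 h and 72 h. Cox7b2 itself ranged widely, from 2.10 to 12.4 CPM over all 12 XX libraries. The part of each gene in the change of share was not tested. Cox7a1, the isoform of heart and skeletal muscle, held 24.6% of its pair with Cox7a2 in XX cells before culture and 10.3% at 72 h, and 14.3% and 30% in XY cells. In XY cells Cox7a1 itself stood at 53.3 to 77.7 CPM at 0 h and 45.9 to 59.7 CPM at 72 h, while Cox7a2 stood at 364 to 493 CPM and 113 to 138 CPM. Cox8c, a testis isoform of Cox8a, held 17.1% of its pair in XX cells at 72 h and 2.89% in XY cells. Cox8c itself was at 9.64 to 17.6 CPM in those XX and 4.03 to 10.6 CPM in those XY libraries, which overlap. Cox6b2, a testis isoform of Cox6b1, held 17.4% in XX, 7.92% in XY DMSO, 7.3% in FGFRi and 17.2% in MEKi cells at 72 h.

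**Figure D3:**
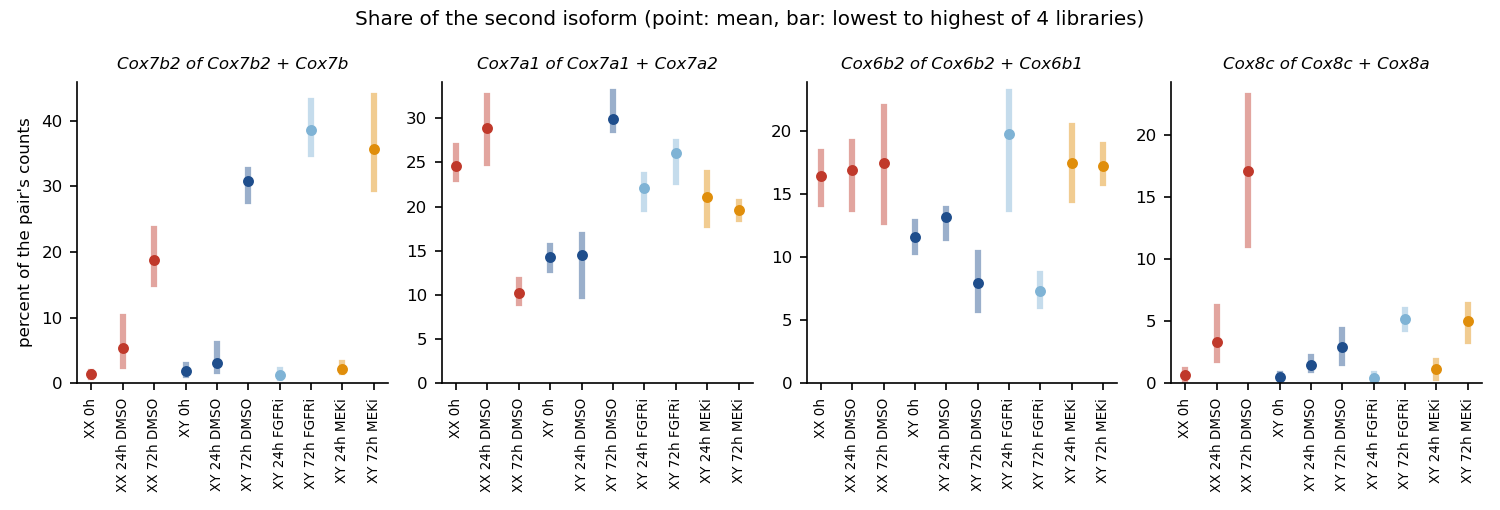
Percent of the counts of an isoform pair that came from Cox7b2, Cox7a1, Cox6b2 or Cox8c, by group (point, mean of 4 libraries; bar, lowest to highest). The mean Cox7b2 share is at most 5.44% in the groups at 0 h and 24 h in DMSO and reaches 18.7% in XX and 30.7% in XY cells at 72 h.

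Differences between the sexes were few at the earlier times. Before culture 1 member was called between XY and XX cells, where 3% of all genes were called: Cox7a1 was at 121, 137, 141 and 142 CPM in XX and 53.3, 71.3, 73.7 and 77.7 CPM in XY libraries (-1.01 ± 0.135, adjusted p = 0.0478). That call was lost under 4 other settings and without each of 6 libraries. Summed somatic and blood markers stood at 172 to 196 CPM in these XX and 194 to 571 CPM in these XY libraries. Without Pecam1, which had a mean of 112 CPM in XX cells, the sums were 55.2 to 82.2 and 92.1 to 477.6 CPM. The part of these markers in the result was not tested. At 24 h Ndufa1 (-1.34 ± 0.152, adjusted p = 0.00014) and Cox7a1 (-1.21 ± 0.147, adjusted p = 0.00105) were lower in XY cells and no member was higher, where 9.99% of all genes were called. Ndufa1 stood at 149, 152, 172 and 276 CPM in XX and 58.5, 68.2, 69.8 and 75.7 CPM in XY libraries at 24 h. Both calls held under all settings and without each library. The difference between XY and XX cells itself changed between 0 h and 72 h for 32 members (7 toward higher and 25 toward lower in XY cells, where 28.9% of all genes were called, 16% higher and 12.9% lower), and 24 of these held throughout. It changed by -3.99 ± 0.232 for Ndufa1, -3.46 ± 0.148 for Atp5pb and -3.07 ± 0.184 for Ndufv2, and by 2.63 ± 0.491 for Cox7b2, 2.12 ± 0.279 for Cox7b and 1.98 ± 0.177 for Cox8a. A constant shift between pools cancels in this comparison.

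Between 24 h and 72 h, members were called in both sexes, and the sexes were not tested against each other over this interval. In XY cells 1 member was called higher and 29 lower, where 27.3% of all genes were called (16% higher and 11.3% lower), and the nuclear members had a median of -0.50 against 0.02 for all genes. In XX cells 3 were higher and 11 lower, where 22.2% of all genes were called (10.3% higher and 11.9% lower), with a median of 0.07 for the nuclear members against -0.10. Ndufa1 and Atp5pb were called higher in XX and lower in XY cells. Another 4 were lower in both sexes (Atp5f1c, Ndufaf4, Ndufaf6 and Cox7b), 23 were called lower in XY cells alone and 7 in XX cells alone, which does not show that the sexes differ for each of them. Pool and time cannot be told apart in these counts. Of the calls, 23 of 30 in XY and 10 of 14 in XX cells held under all settings and without each library.

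In XX cells Ndufa1 rose from 149 to 276 CPM at 24 h to 711 to 917 CPM at 72 h, a 5.04-fold increase (2.33 ± 0.125, adjusted p = 5.24e-17). Atp5pb rose from 572, 602, 642 and 720 CPM to at least 1090 CPM (0.91 ± 0.0967, adjusted p = 0.00454), and the assembly factor Ndufaf8 from a mean of 77.9 to 165 CPM (2.30-fold, adjusted p = 0.000281). Cox7b fell from 110 to 222 CPM to 23.4 to 45 CPM (-2.26 ± 0.236, adjusted p = 5.47e-08). Cox7a1 fell by 1.77 ± 0.172 and Ndufaf6 by 1.56 ± 0.388 on the log2 scale. Cox8a had already fallen by 24 h, from 370, 400, 418 and 468 CPM to 135, 186, 242 and 252 CPM (-0.98 ± 0.115, adjusted p = 0.0216), and fell again by 72 h (-1.51 ± 0.148). The first of these steps was the sole member called between 0 h and 24 h in XX cells, where 3.23% of all genes were called, and 4 of the libraries could each end that call when left out.

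In XY cells Atp5pb fell from 327, 381, 383 and 472 CPM at 24 h to between 73.6 and 109 CPM at 72 h, a 4.41-fold decrease (-2.14 ± 0.119, adjusted p = 5.61e-16). Atp5pd (-2.02 ± 0.186) and Atp5mk, a small membrane subunit of ATP synthase (-2.00 ± 0.199), fell by a like amount. Ndufv2 went from 186, 223, 227 and 277 CPM to 61.9 to 77.6 CPM (-1.76 ± 0.147). Ndufa1 fell from 58.5 to 75.7 CPM to 22.6 to 33.3 CPM (-1.26 ± 0.2, adjusted p = 0.00393), a call that not every setting kept. The member that rose was Cox7b2, from 4.13, 5.95, 6.22 and 15.6 CPM to 40.5 to 60.6 CPM (2.96 ± 0.268, adjusted p = 1.44e-10), and no library overlapped. Between 0 h and 24 h no member was called in XY cells by treat, where 2.94% of all genes were called, and edgeR and DESeq2 also called none. No member passed an unadjusted p of 0.05 there, although 12 rose against a null of no change (eBayes), where 11.9% of all genes rose, among them Ndufv3 (0.61), Ndufs8 (0.55) and Ndufb11 (0.51).

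Summed over genes, nuclear members took 2.46% ± 0.145 of counts in XX and 2.23% ± 0.139 in XY cells before culture (SD, n = 4). At 72 h the share was 2.53% ± 0.251 in XX, 1.83% ± 0.0512 in XY DMSO, 1.86% ± 0.206 in FGFRi and 2.14% ± 0.123 in MEKi cells. The XX libraries (2.16% to 2.70%) did not overlap those of XY DMSO (1.77% to 1.89%), and neither did those of MEKi (2.01% to 2.25%). Mitochondrially encoded members took 0.909% ± 0.0398 in XX and 1.08% ± 0.109 in XY cells at 72 h. With the counts of their annotated copies added, these shares were 2.35% ± 0.0837 and 2.69% ± 0.275. These shares are a description without a test.

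**Figure D4:**
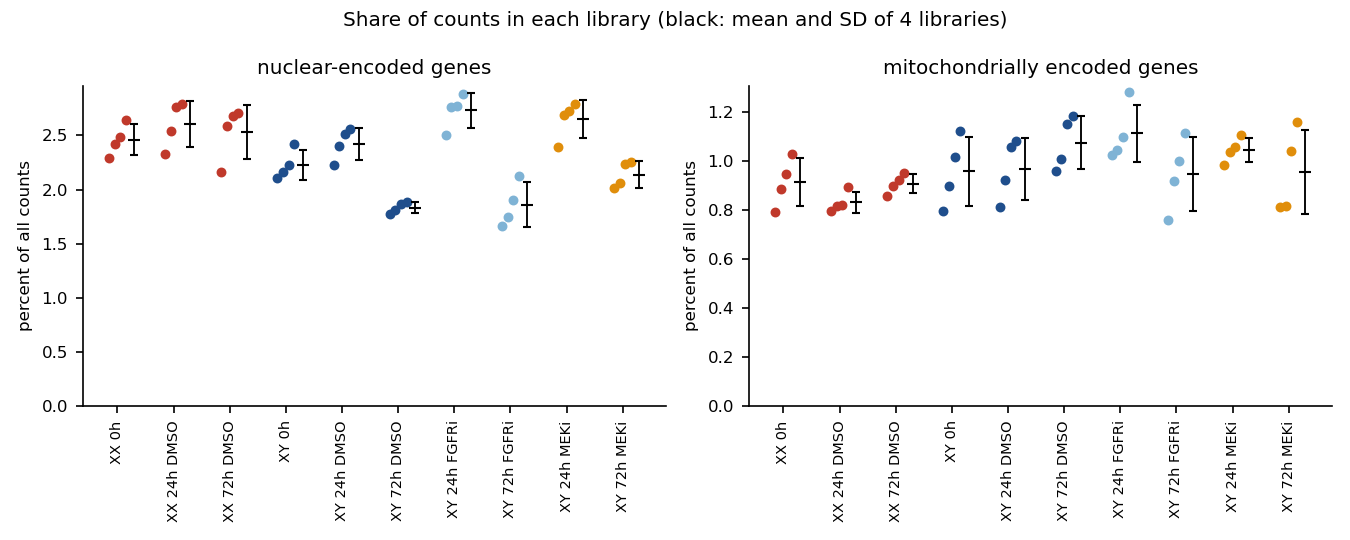
Percent of all counts in each library from nuclear members and from mitochondrially encoded members, by group. The nuclear share is lowest in XY DMSO (mean 1.83%) and FGFRi (mean 1.86%) cells at 72 h, while the mitochondrial share, counted without annotated copies, has group means of 0.832% to 1.11%.

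MEK inhibition of XY cells for 72 h was followed by higher levels of a few subunits of complexes I and III and ATP synthase. Compared to DMSO, 8 members were called higher and 1 lower, where 9.12% of all genes were called (4.01% higher and 5.11% lower), and 6 of the 9 held under all settings and without each library, among them Atp5pb, Ndufa1, Ndufv2, Atp5pd and Cyc1. The calls of Atp5mk, Ndufb7 and Ndufv3 did not hold throughout. With 1 library left out 7 to 12 members were called, and more than 9 by edgeR's glmTreat and with counts corrected for merged molecular tags. The MEKi libraries held more counts than the DMSO libraries (medians 3419879.5 and 1796452.5). Within groups, levels of nuclear members fell with total count (median slope -0.0682). The nuclear members had a median of 0.11 against 0.01 for all genes. This comparison shares the XY DMSO libraries with that of XY and XX cells, so the values are given side by side and their likeness is not a result.

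Atp5pb was counted at 320, 342, 405 and 424 CPM with MEKi, against 73.6 to 109 CPM with DMSO and 1090 to 1222 CPM in XX cells (MEKi against DMSO 2.01 ± 0.114, 4.03-fold, adjusted p = 1.35e-14). Ndufa1 stood at 86.7, 101, 121 and 145 CPM with MEKi, against 22.6 to 33.3 CPM with DMSO (1.92 ± 0.186, adjusted p = 2.11e-07). Ndufv2 stood at 164, 187, 229 and 253 CPM, against 61.9 to 77.6 CPM with DMSO (1.54 ± 0.141, adjusted p = 7.04e-07). For all 3 genes every MEKi library lay above every DMSO library and below every XX library. Atp5pd (1.54 ± 0.181) and Cyc1 (1.31 ± 0.151) were higher as well. The MEKi libraries of Cyc1, at 121, 136, 178 and 209 CPM, overlapped those of XX cells. Ndufv3 went down, to 158, 162, 176 and 182 CPM from 302 to 355 CPM (-0.97 ± 0.0938, adjusted p = 0.00178), and its MEKi libraries lay between the XX and the XY DMSO libraries. Uqcrc2, at 90.5, 92.8, 96.8 and 99.4 CPM with MEKi, was not called, and stayed below its XX libraries of 281 to 318 CPM.

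MEKi-treated XY cells still differed from XX cells at 72 h, with 4 members called higher and 22 lower, where 30% of all genes were called (17.2% higher and 12.8% lower). Ndufa1 (-3.01), Atp5pb (-1.70) and Uqcrc2 (-1.66) were the largest decreases, and Cox7b2 (2.30), Cox8a (1.53) and Ndufaf6 (1.47) the largest increases. Of these 26 calls 17 held under all settings and without each library.

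After FGF receptor inhibition for 72 h no member was called by treat, where 0.00656% of all genes were called. No member passed an unadjusted p of 0.05, and edgeR and DESeq2 called none. Against a null of no change, mt-Co1 was lower (-0.44, adjusted p = 0.00852). Atp5pb was counted at 78.5, 102, 103 and 109 CPM with FGFRi, Ndufa1 at 24.4, 25, 26.9 and 38.4 CPM and Ndufv2 at 59.6, 59.9, 76.0 and 89.7 CPM. For all 3 genes these libraries overlapped those of DMSO. Set directly against FGFRi at the same dose and time, MEKi had 13 members higher and 1 lower, where 12.7% of all genes were called (5.71% higher and 6.98% lower). Atp5pb (1.92 ± 0.105), Ndufa1 (1.88 ± 0.158) and Ndufv2 (1.53 ± 0.129) led the increases, Ndufa12 (1.41), Atp5pd (1.24) and Ndufc1 (1.19) followed, and Ndufv3 was lower (-0.83 ± 0.0925, adjusted p = 0.0452). Of these 14 calls 7 held under all settings and without each library. BGJ398 and PD0325901 inhibit different enzymes and their 72 h groups were sequenced together.

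At 24 h no member was called by treat for either inhibitor, where 0.262% of all genes were called for FGFRi and 0.164% for MEKi, and edgeR and DESeq2 called none. With FGFRi 1 member passed an unadjusted p of 0.05 and with MEKi none did. Against a null of no change 8 members were higher with FGFRi, where 2.75% of all genes were, and 3 with MEKi, where 2.24% were. Cox7a1 led both, at 107, 118, 136 and 149 CPM with FGFRi (0.99, adjusted p = 6.32e-06) and 96.8, 104, 122 and 124 CPM with MEKi (0.81), against 38.5, 55.4, 73.0 and 74.7 CPM with DMSO. The DMSO libraries of Cox7a1 lay below those of both inhibitors. Cox6b2 was higher in both too (0.77 and 0.72). Somatic and blood markers summed to 155 to 283 CPM with DMSO, 145 to 174 with FGFRi and 318 to 609 with MEKi at 24 h. Without Pecam1 these sums were 70.8 to 222.4, 97.8 to 124.5 and 224.9 to 541.5 CPM. The part of these markers in the values was not tested. The 2 comparisons share the DMSO libraries, and that of FGFRi is also a comparison of pools. The MEKi effect itself was more positive at 72 h than at 24 h for 5 members, where 1.89% of all genes were called, among them Atp5pb (1.76), Ndufa1 (1.62), Cyc1 (1.38) and Ndufv2. Among these 5 calls, that of Atp5pb held under all settings and without each library.

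Without the fold threshold, smaller differences were called in members and in other genes. Members were called less often than all genes between the sexes at 0 h (15.9% of members tested) and 24 h (24.3%). The same held from 0 h to 24 h in XX (21.5%) and XY cells (11.2%), with MEKi at 24 h (2.8%) and for MEKi against FGFRi (44.9%). In some other comparisons their share was higher, as with FGFRi at 24 h (7.48%) and for the MEKi effect over time (32.7%). Between XY and XX cells 17 members were called at 0 h (24.2% of all genes), 26 at 24 h (38.8%) and 73 at 72 h (67.4%). From 0 h to 24 h there were 23 in XX (30%) and 12 in XY cells (24.8%), and from 24 h to 72 h there were 62 in XX (54.3%) and 67 in XY cells (59.2%). FGFRi gave 8 at 24 h (6.33%) and 1 at 72 h (1.08%), and MEKi gave 3 at 24 h (5.89%) and 50 at 72 h (45.8%). MEKi against FGFRi gave 48 (52.1%), MEKi-treated XY against XX cells 71 (62.7%), the sex difference over time 64 (54%) and the MEKi effect over time 35 (23.2%). As a share of the members tested these counts ran from 0.935% (FGFRi at 72 h) to 68.2% (XY against XX cells at 72 h).

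The 13 mitochondrially encoded genes are core subunits of complexes I, III, IV and ATP synthase. None was called by treat in any of the 15 comparisons, with at most 1 of them past an unadjusted p of 0.05 in a comparison. Between XY and XX cells at 72 h they ranged from -0.86 (mt-Nd6) to 0.63 (mt-Atp8), with mt-Nd1 (0.16), mt-Nd2 (-0.04), mt-Nd3 (0.09), mt-Nd4 (0.14), mt-Nd4l (-0.03), mt-Nd5 (0.40), mt-Cytb (0.05), mt-Co1 (0.20), mt-Co2 (-0.10), mt-Co3 (0.18) and mt-Atp6 (0.27) in between. Against a null of no change mt-Nd5 was higher and mt-Nd6, the one gene on the light strand, was lower. With MEKi mt-Co1 was at 696, 710, 869 and 886 CPM, against 1060, 1081, 1184 and 1331 CPM with DMSO (-0.60, adjusted p = 3.39e-07 against no change). The MEKi libraries lay below the DMSO libraries. The FGFRi libraries, at 750 to 976 CPM, overlapped the MEKi libraries, and MEKi against FGFRi was -0.16. The median total count was 1796452.5 in DMSO, 3036168 in FGFRi and 3419879.5 in MEKi libraries, and with total count as a covariate the mt-Co1 difference was -0.44. In the same way mt-Cytb was -0.59 against DMSO, 0.02 against FGFRi and 0.03 with the covariate.

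Reads of several members could be split with annotated pseudogene copies, and 35 members had copies that held counts. For 9 mitochondrial genes the copies held more than 10% of the sum, up to 93.8% for mt-Nd4l and 90.7% for mt-Co2. When they were added, the MEKi difference from DMSO at 72 h became smaller for mt-Nd4l (0.91 to 0.28) and larger for mt-Co3 (-0.19 to -0.61), mt-Co2 (-0.01 to -0.39) and mt-Atp6 (-0.17 to -0.39). Those 3 then passed against no change (adjusted p = 0.00209, 0.00585 and 0.0121) and did not pass treat, and mt-Co1 went from -0.60 to -0.63. With FGFRi against the same DMSO libraries, the values with copies were -0.62 for mt-Co3 (adjusted p = 0.0495 against no change), -0.31 for mt-Co2 and -0.40 for mt-Atp6, and MEKi against FGFRi was 0.02, -0.08 and 0.00421. Between MEKi-treated XY and XX cells mt-Co3 went from -0.01 to -0.59. Among nuclear members 18 had such copies, and Ndufs6 (77%) is uncertain because its copies also resemble Rps28. Adding copies left Atp5pd at -2.72, Ndufa12 at -1.97 and Atp5mk at -1.05 between XY and XX cells at 72 h. Ndufa1 was unaffected (-4.93), and the copies of Atp5pb held 8.65%. The 76 tested nuclear members without such copies had 7 higher and 28 lower calls between XY and XX cells at 72 h.

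Very abundant transcripts are understated when molecular tags run short, because different molecules then carry equal or near-equal tags and are merged. Within groups, log2 CPM fell with log2 total count by -0.135 per unit for genes with mean counts of 1200 to 2400 and by -0.491 for those over 4800, compared to -0.00235 for those of 300 to 600. The median slope was -0.0682 for nuclear and -0.106 for mitochondrial members, and 0.0421 for all genes. With counts corrected for 8-base tags merged within 1 mismatch, the mitochondrial median became 0.149 and that of all genes 0.0429. The corrected slopes of abundant genes were positive, at 0.143 for 1200 to 2400 counts and 0.219 over 4800, so the correction went past 0 for them and its folds may be too large. It gave -5.39 (42-fold) for Ndufa1, -4.30 for Atp5pb and -3.43 for Ndufv2 between XY and XX cells at 72 h, each larger in size than the uncorrected value.

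**Figure D5:**
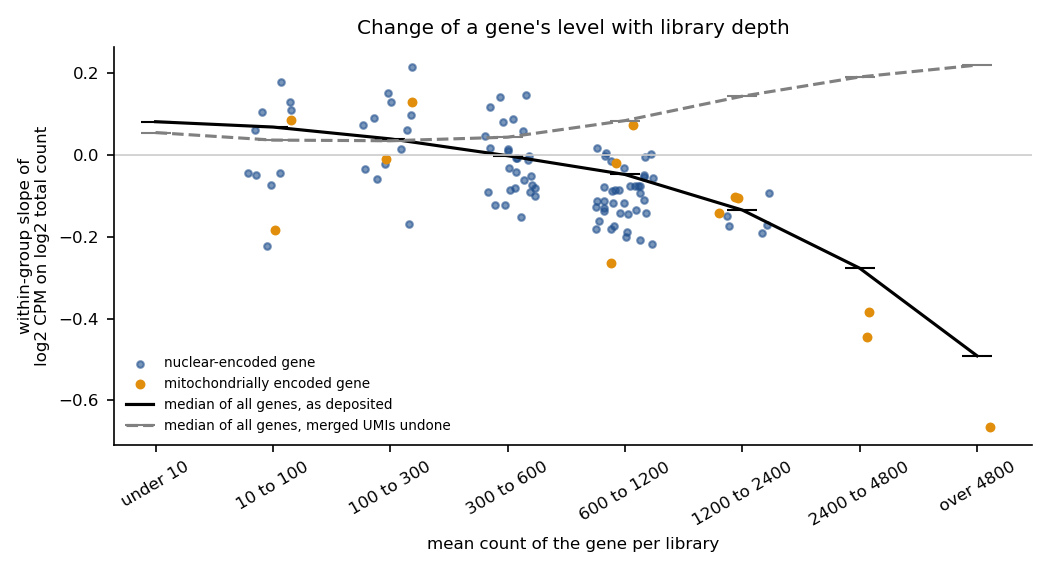
Median within-group slope of log2 CPM on log2 total count, by the gene's mean count, before and after correction for merged molecular tags. Before correction the slope goes from 0.0807 under 10 counts to -0.00235 at 300 to 600 counts and -0.491 above 4800 counts, and after correction it is 0.219 above 4800 counts.

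Genes that build or feed the complexes without being subunits were followed in pathway lists chosen for this. Of 39 assembly factors of complexes II to V, 1 was higher and 15 were lower in XY than XX cells at 72 h (2.56% and 38.5% of the list), where 22.8% of all genes were higher and 18.1% lower, and the median was -0.70. Atpaf2, which assembles the F1 head of ATP synthase (-3.32), Sdhaf1, which helps insert the clusters of complex II (-2.76), and Uqcc6, a complex III factor (-2.56), differed most, and Sco2, which delivers copper to complex IV, was higher (2.05). With MEKi 5 of these 39 (12.8%) were higher than with DMSO, where 4.01% of all genes were, and none was lower, led by Uqcc6 (2.00), Sdhaf1 (1.88) and Atpaf2 (1.61). Among 10 further complex I assembly factors 1 was higher (Timmdc1, 1.42) and 5 lower, among them Ecsit (-2.02) and Foxred1 (-1.86), which is 60% called where 41% of all genes were. None of the 10 was called with MEKi against DMSO.

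Of 21 citric acid cycle genes 5 were higher and 7 lower in XY cells at 72 h (57.1% called, against 41% of all genes), from Ogdhl (2.21) and Mdh2 (1.72) to Pcx (-2.07) and Dld (-1.88). In the list of cytochrome c and carriers 4 of 13 were called (30.8%, below the 41% of all genes), with the ADP/ATP carriers Slc25a5 (1.68) and Slc25a4 (0.83) higher and Etfa, the electron transfer flavoprotein subunit (-2.23), and the uncoupling protein gene Ucp2 (-2.75) lower. Etfa was higher with MEKi (1.16). Of 31 genes of mitochondrial DNA expression 4 were higher and 3 lower, including Polg2 (2.42) and Tfb1m (-2.21), and the 22.6% called is below the 41% of all genes. Among 17 regulators of respiratory genes 5 were higher and 3 lower, which is 47.1% called. The 3 lower were Nrf1 (-0.94) and the GABP subunits Gabpa (-1.37) and Gabpb1 (-1.34), and the higher ones included Prkaa1 (2.32), Ppargc1b (2.29) and Esrrb (2.12).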

How the data were processed

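RNA of sorted germ cells was primed at the poly(A) tail with a sample index and a molecular tag, sequenced from the 3′ end and, per the labels and methods, processed by the authors with scPipe and Rsubread against GRCm39 with strand-aware exon counting. The deposited values are counts per gene and library after duplicate tags were removed. The submitters' processing notes name limma and edgeR.

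Counts of all 40 libraries were filtered with filterByExpr (minimum count 10), scaled by TMM in edgeR 4.0.16 and fitted with voom quality weights and 1 mean per group in limma 3.58.1 (R 4.3.3). Calls came from treat against a fold change of 1.5 at a false discovery rate of 0.05 over 15252 genes. "Against no change" means limma's eBayes. Total counts of 1178953 to 5199153 set the precision. edgeR's glmTreat, DESeq2 1.42.0, no filter, no quality weights, total count as a covariate, each library left out and a replicate block were tried, and merged tags and pseudogene copies (95% identity, BLAST+ 2.17.0+) were corrected. The full fit was tested on simulated data. It recovered 100% of 4-fold and 77.5% of 2.5-fold changes in XY against XX cells at 72 h (200 genes changed among 15252), with 0 unchanged genes called. The changed genes were drawn from the more abundant ones, and unchanged genes had equal means in all groups. No effect of pool or of merged tags was simulated. The 0 therefore does not measure false calls in the real data, where 41% of genes were called.

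In each comparison the text names at least the 3 called members with the largest change in each direction, the 13 mitochondrial genes, the isoform pairs, and up to 3 genes per direction of each pathway list. Members and lists were chosen with earlier results of these data known. Tags have 8 bases in the authors' code and 10 in the methods text. The authors' own comparisons were not used. The pools reused sample indexes. Y-linked counts in 4 XX 24 h libraries were 4.2% of those in the pool 2 libraries of the same index, and 1 setting subtracted that share from the 16 pool 1 libraries with such a partner. The values of 1 member are not reported here.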

Additional observations from a re-analysis of the deposited data

Results flagged for a closer look

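The difference between XY and XX cells differed between 0 h and 72 h by the test of the difference itself for Ndufa1 (log2 -3.99), Atp5pb (-3.46) and Ndufv2 (-3.07), and for Cox7b2 (2.63), Cox7b (2.12) and Cox8a (1.98). The effect of MEKi in XY cells differed between 24 h and 72 h for Atp5pb (1.76), Ndufa1 (1.62) and Cyc1 (1.38). A sample far from the others was found in 2 of 190 groups of 4 libraries tested (15 named members and 4 measures of each library, in 10 groups), where chance gives about 5% of groups. In XX cells at 0 h, Ndufa1 was at 148 CPM in replicate 3 and 121 to 125 CPM in the others. In the same group Cyc1 was at 317 CPM in replicate 2 and 232 to 239 CPM in the others.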

How the results depend on the processing

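Of 932 values of 15 named members under other settings, 889 kept direction and call, 43 kept direction and lost the call, and 0 reversed. Counts of members called moved by over 1.5 times as follows. With eBayes, which has no fold threshold, they were 17 (XY v XX at 0 h), 23 (XX 24 h v 0 h), 12 (XY 24 h v 0 h), 26 (XY v XX at 24 h), 62 (XX 72 h v 24 h), 67 (XY 72 h v 24 h), 73 (XY v XX at 72 h), 8 (FGFRi at 24 h), 3 (MEKi at 24 h), 1 (FGFRi at 72 h), 50 (MEKi at 72 h), 48 (MEKi v FGFRi), 71 (MEKi-treated XY v XX), 64 (sex by time) and 35 (MEKi by time). XY v XX at 0 h had 0 without the filter on low counts, without quality weights, with total count as a covariate and by DESeq2. edgeR's glmTreat called 4 for XY v XX at 24 h and 15 for MEKi at 72 h, and correction for merged tags called 15 for MEKi at 72 h. Without the filter MEKi v FGFRi had 9 and MEKi by time 2, and MEKi by time had 3 with the covariate and 3 by DESeq2. The cause was not tested.

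Leaving out each library in turn gave 0 to 1 (XY v XX at 0 h, lost without XX replicates 3, 4 or 5 or XY replicates 3, 5 or 6), 0 to 1 (XX 24 h v 0 h, lost without 0 h replicates 3 or 4 or 24 h replicates 4 or 6), 2 to 3 (XY v XX at 24 h), 11 to 16 (XX 72 h v 24 h), 26 to 30 (XY 72 h v 24 h), 39 to 43 (XY v XX at 72 h), 7 to 12 (MEKi at 72 h), 9 to 15 (MEKi v FGFRi, 9 without FGFRi replicate 2), 18 to 28 (MEKi-treated XY v XX), 28 to 33 (sex by time), 3 to 6 (MEKi by time, 3 without DMSO 72 h replicate 5) and 0 in the other 4. With the replicate number as a block, MEKi-treated XY v XX had 27 calls instead of 26 and the other counts were identical. No pairing by number was detected, as 1 of 17 same-number pairs had a correlation over 0.1 (-0.0918 to 0.119). Pairs with different numbers ranged as widely (-0.125 to 0.151), so this cannot exclude shared litters or culture days. With annotated copies added, the mitochondrial share of counts moved to 2.21%, 2.08% and 2.35% in XX cells at 0 h, 24 h and 72 h, 2.31%, 2.36% and 2.69% in XY cells, 2.8% and 2.26% with FGFRi and 2.59% and 2.25% with MEKi at 24 h and 72 h. The corrections for merged tags within 1 mismatch and for pseudogene copies were chosen after seeing the data.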
